A study of Homo sapiens with 6 samples.

Results

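Collagens, laminins and the main glycoproteins and proteoglycans of the extracellular matrix were examined in RNA-seq data from SK-MEL-28 cells, an established human melanoma cell line. The genes were chosen by symbol alone: the protein-coding collagen chains (COL followed by a number, A and a number), the laminin chains (LAMA, LAMB and LAMC) and 17 glycoproteins and proteoglycans (FN1, TNC, TNR, SPARC, THBS1, THBS2, THBS3, NID1, NID2, HSPG2, AGRN, FBN1, FBN2, VCAN, BGN, DCN and LUM). This gave 73 of the 60504 genes in the count table, made up of 44 collagens, 12 laminins and those 17 genes. The rule uses symbols and no expression value, but it was chosen with earlier results of these data known. Of the 73 genes, 51 had enough counts to be tested and 22 did not.

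The matrix outside a cell is built from proteins that assemble in sets. A collagen molecule is a triple helix of 3 chains, and a laminin is a cross of an alpha, a beta and a gamma chain. Each kind of chain has its own gene. Laminins, collagen IV, nidogens, perlecan (HSPG2) and agrin (AGRN) form the basement membrane, the sheet that a melanocyte rests on in skin, while fibrillar collagens, fibronectin (FN1), fibrillins and proteoglycans form the tissue matrix beneath it. Tumour cells make matrix of their own, and melanoma cells are known for secreting fibronectin, tenascin-C (TNC) and SPARC.

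The study asked how forced expression of HDAC8, a class I histone deacetylase, changes transcription in melanoma cells. SK-MEL-28 cells were transfected with an empty vector plasmid (EV, the control, 3 libraries) or with a plasmid that expresses HDAC8 (3 libraries), and according to the methods both populations were kept in hygromycin, so the control cells also carried a plasmid and were under selection. The labels number the biological replicates 1 to 3 in each group and say that cells were harvested before they were confluent, but do not say whether the replicates came from separate transfections or whether either population was clonal. The p-values therefore measure the spread between these libraries only.

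Library totals ranged from 20850018 to 29822917 counts, and the detection floor used here, 3 counts, corresponded to 0.102 to 0.148 CPM (counts scaled to library size), covering counting error only. The HDAC8 gene itself did not separate the groups. Libraries labelled EV held 14.5 ± 2.48 CPM of it (SD, n = 3) and those labelled HDAC8 14.2 ± 0.88 CPM, and its log2 fold change was -0.02 (SE, the standard error, 0.13; adjusted p = 0.924, edgeR's quasi-likelihood test). Whether reads from the plasmid were counted on this gene is not given in the sources used here. Groups are therefore called by their labels throughout, and higher and lower mean higher and lower with the HDAC8 label than with the EV label. The melanocyte lineage was present in all libraries, with 8 of 8 marker genes tested and a summed level of 6462 to 6849 CPM in the EV-labelled and 7481 to 8003 CPM in the HDAC8-labelled libraries. Of these, TYRP1 (log2 fold change 1.76, edgeR adjusted p = 0.0204) rose and DCT (-1.77, edgeR adjusted p = 1.13e-09) fell past both thresholds given below. TYRP1 did not pass without EV replicate 1, EV replicate 3, HDAC8 replicate 1 or HDAC8 replicate 2 (adjusted p = 0.0817 to 0.102). TYR (0.44), PMEL (0.34), SOX10 (0.23), MITF (-0.14) and S100B (-0.28) passed the adjusted p alone. Markers of matrix-producing fibroblasts summed to 7.14 to 7.62 CPM in the EV-labelled and 6.11 to 8.65 CPM in the HDAC8-labelled libraries, with TWIST2 at 0 in every library, and 0 of the 3 that could be tested in edgeR had even an unadjusted p below 0.05. Endothelial, keratinocyte and immune markers summed to at most 3.93, 10.1 and 2.69 CPM in any library, and 0 of the 3 tested among them in edgeR had an unadjusted p below 0.05.

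The sequences just upstream of 3 of the loci with the largest or the shared changes are shown first. They are the stretch that lies between the start sites of COL4A1 and COL4A2, the collagen IV gene pair that is read in opposite directions, and the stretches upstream of VCAN (versican) and FN1. All are RefSeq sequences on GRCh38.p14, written 5′ to 3′ on the strand named, and end where annotated exons begin. Capitals mark matches, on either strand, to the CCAAT box (CCAAT), the GC box (GGGCGG, or CCGCCC on the other strand, overlapping copies counted) and the cyclic AMP response element (TGACGTCA).
COL4A1-COL4A2, chr13:110307158-110307257, plus strand: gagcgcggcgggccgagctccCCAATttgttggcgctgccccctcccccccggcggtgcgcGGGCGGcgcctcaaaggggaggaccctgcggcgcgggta
VCAN, chr5:83471494-83471617, plus strand: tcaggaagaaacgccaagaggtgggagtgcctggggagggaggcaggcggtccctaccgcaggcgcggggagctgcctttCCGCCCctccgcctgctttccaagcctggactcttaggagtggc
FN1, chr2:215436074-215436318, minus strand: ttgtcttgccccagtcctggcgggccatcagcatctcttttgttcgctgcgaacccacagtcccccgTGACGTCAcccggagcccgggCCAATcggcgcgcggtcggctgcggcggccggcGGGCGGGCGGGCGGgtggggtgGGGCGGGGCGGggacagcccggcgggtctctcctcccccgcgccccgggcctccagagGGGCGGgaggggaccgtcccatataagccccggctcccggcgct
The annotated starts of COL4A1 and COL4A2 lie 126 bases apart, and 100 of these bases are shown. The FN1 stretch held 1 cyclic AMP response element, 1 CCAAT box and 6 GC boxes, whereas the VCAN stretch held 1 GC box and the collagen IV stretch 1 GC box and 1 CCAAT box. RefSeq promoter windows (250 bases before to 50 after the start) were found for 54 of the 73 genes. The GC box occurred in 63.0% of these windows and in 44.6% of all 27305 windows of the table, the CCAAT box in 31.5% and 35.7%, and the cyclic AMP response element in 1.85% (FN1) and 1.98%. The AP-1 motif TGANTCA, to which JUN proteins bind, was found in 1 of the 54 windows (1.85%) and in 7.76% of all windows, and in 0 of the 12 windows of genes that rose or fell. The windows of the matrix genes had a median GC content of 66.3%, beside 58.3% over all windows. The shares therefore compare sequences of unlike base composition. Only the first listed start of each gene was used. These are matches of letters and say nothing of binding.

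Of the 51 genes tested, 7 were higher and 5 were lower in the HDAC8-labelled libraries when both an adjusted p below 0.05 (edgeR's quasi-likelihood test, Benjamini-Hochberg adjustment over all 16195 genes tested) and a log2 fold change of 0.58 or more in either direction were asked for. Past both thresholds were thus 23.5% of the tested matrix genes, beside 7.52% of all genes tested (4.07% higher and 3.45% lower). In bulk RNA, fewer cells that make a transcript and less of it per cell cannot be told apart. VCAN, BGN, COL4A2, THBS2, FBN1, COL6A3 and COL4A1 rose, and FN1, COL16A1, COL19A1, COL11A2 and COL5A3 fell. The 2 directions nearly balanced, with 22 positive and 29 negative log2 fold changes and a median of -0.09, beside 0.0091 over all genes tested. At the adjusted p alone, 22 of the 51 genes passed (8 positive, 14 negative), and the background at this threshold was 22.7% of all genes tested. The libraries of the 2 groups did not overlap in CPM for 30 of the 51 genes, beside 38.0% of all genes tested. The plot of fold changes by class shows that most classes held changes of opposite sign, and that the laminins all lay to the left of 0.

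**Figure D1:**
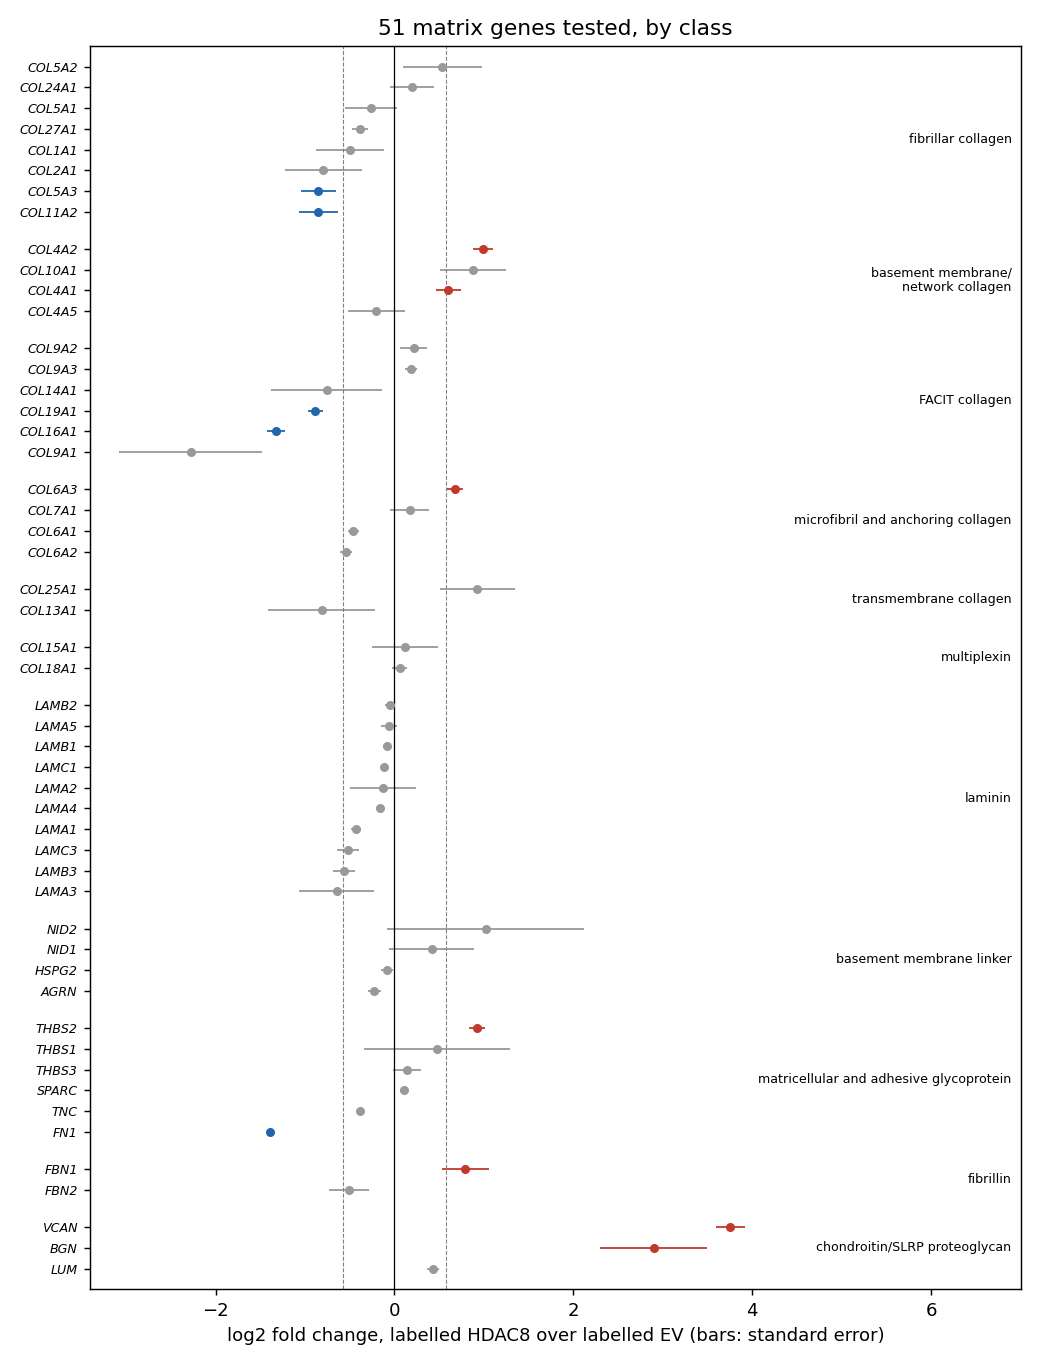
Log2 fold change (x axis, HDAC8-labelled over EV-labelled libraries) of the 51 matrix genes tested, grouped by class. Bars are SEs, dashed lines mark the fold threshold of 0.58, and the 7 genes past both thresholds upward are red, the 5 downward blue and the other 39 grey.

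Matrix genes differed widely in level. Per kilobase of merged exons, SPARC had the highest mean over the 6 libraries (607 CPM per kb), followed by FN1 (300 CPM per kb), LAMC1 (50.3), COL9A3 (41.4), TNC (40.1), HSPG2 (39.4), COL6A1 (25.5), AGRN (24.6), LAMB1 (23.8) and LAMA4 (19.3). Merged exons are at least as long as any transcript of a gene, so levels of different genes compare only roughly. The plot of level against change shows that FN1 was the sole gene among these 10 that passed both thresholds, while the 7 genes that rose lay between 0.173 (FBN1) and 4.20 (THBS2) CPM per kb.

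**Figure D2:**
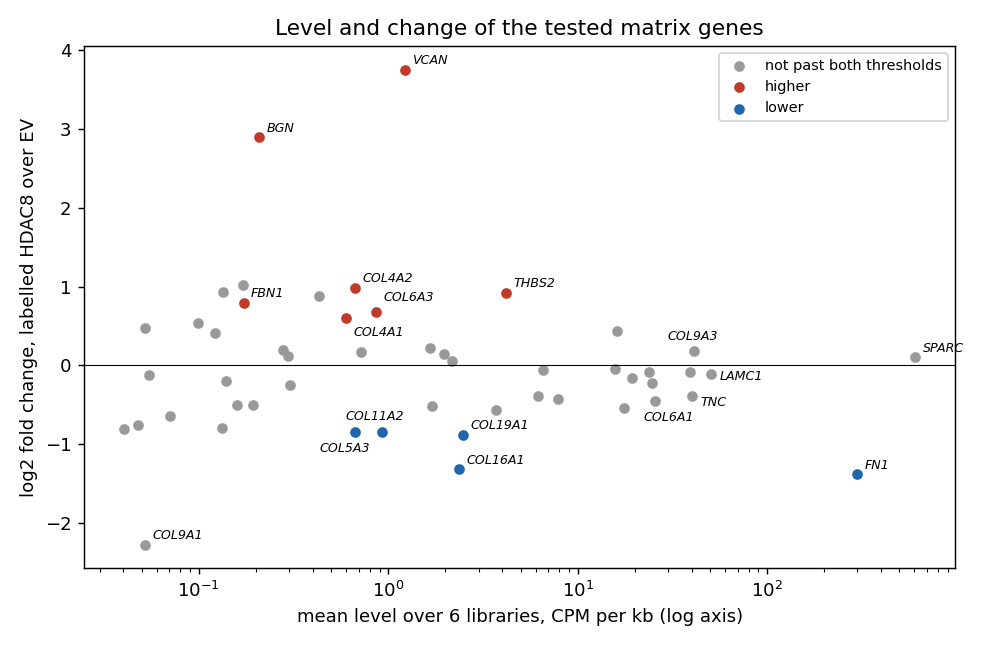
Mean level over the 6 libraries (x axis, CPM per kb of merged exons, log axis) against the log2 fold change (y axis) for the 51 matrix genes tested. Points are genes, red where higher, blue where lower and grey where not past both thresholds, and the most abundant genes apart from FN1 lie near 0.

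The 73 genes together took 1.41% to 1.42% of each EV-labelled library and 0.883% to 0.944% of each HDAC8-labelled library. Their summed level was 14068, 13736 and 14128 CPM in the EV-labelled libraries and 8925, 9336 and 9346 CPM in the HDAC8-labelled libraries. The groups did not overlap (exact permutation test, two-sided p = 0.1, the smallest that 3 libraries against 3 allow; 0.217 adjusted over the 13 comparisons of this kind). FN1 made up 53.3% to 53.6% of the summed matrix counts in the EV-labelled libraries and 30.4% to 31.6% in the HDAC8-labelled libraries. Without FN1, the sum was 6545, 6368 and 6595 CPM beside 6101, 6431 and 6503 CPM and the groups overlapped (exact permutation test, two-sided p = 0.4). SPARC took 19.0% to 19.9% of the matrix counts with the EV label and 31.2% to 32.0% with the HDAC8 label, at 2608 to 2794 and at 2849 to 2986 CPM. The bars of summed level show the loss in the FN1 segment.

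**Figure D3:**
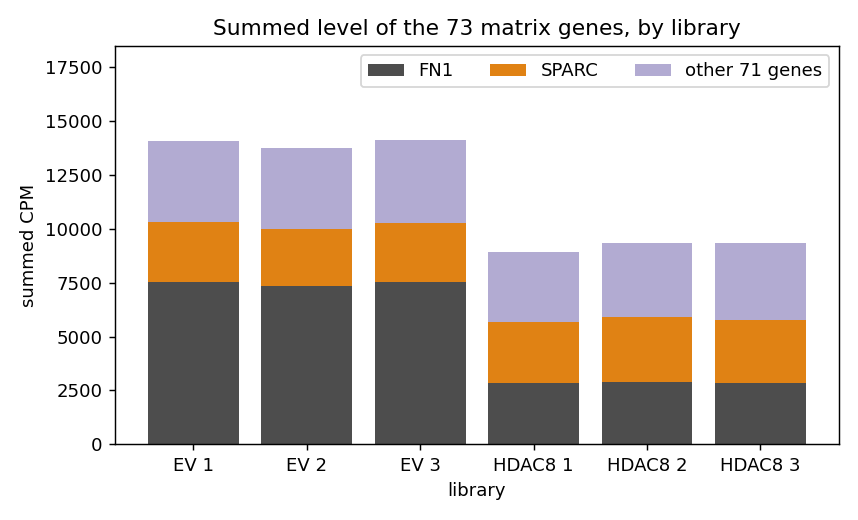
Summed level (y axis, CPM) of the 73 matrix genes in each of the 6 libraries, split into FN1, SPARC and the other 71 genes. The 3 HDAC8-labelled libraries reach 8925 to 9346 CPM beside 13736 to 14128 CPM in the EV-labelled libraries, and the FN1 segment is the one that shrinks most.

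Adhesive and matricellular glycoproteins link cells to the matrix or tune that contact. Fibronectin (FN1, ENSG00000115414, chromosome 2, 215360440 to 215436073, minus strand, GENCODE 44 on GRCh38 as for all genes here) is the adhesive protein bound by several integrins. FN1 had 162260, 163334 and 185407 counts in the EV-labelled libraries and 83282, 58937 and 66057 counts in the HDAC8-labelled libraries. Its level fell from 7475 ± 92.2 to 2857 ± 42.2 CPM (SD, n = 3), 2.62-fold lower, with a log2 fold change of -1.39 (SE 0.032, adjusted p = 1.41e-10 by edgeR's quasi-likelihood test). Replicates within each group were close together, and the groups lay far apart relative to that spread. The 5 genes that fell are plotted with the 7 that rose by library.

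**Figure D4:**
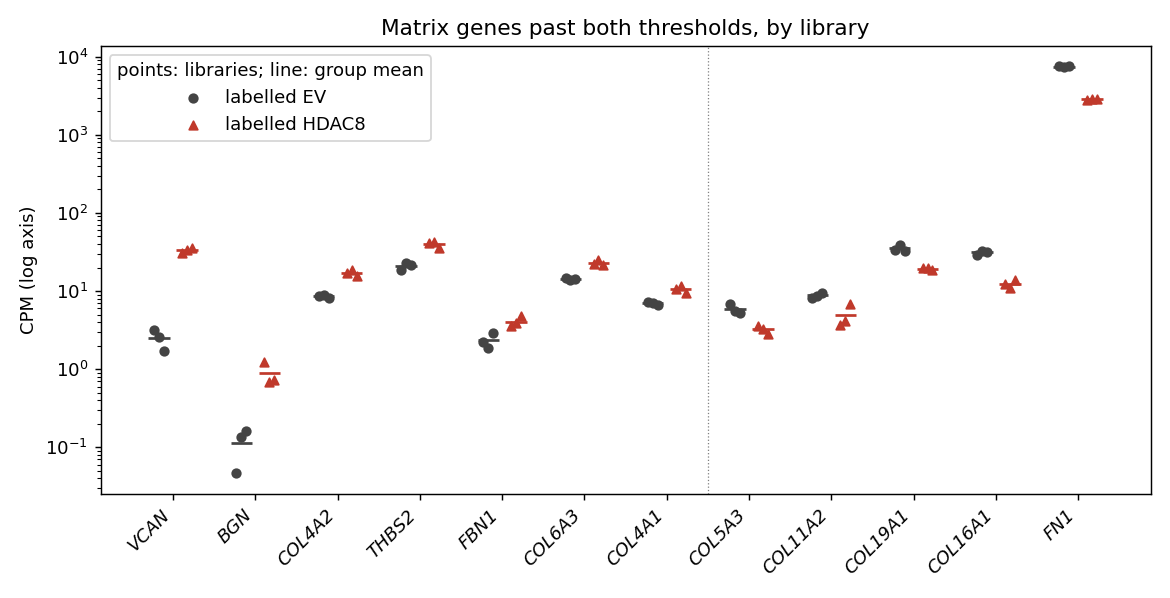
Level (y axis, CPM, log axis) of the 12 matrix genes past both thresholds in each library, 7 higher on the left and 5 lower on the right of the dotted line. Circles are EV-labelled and triangles HDAC8-labelled libraries (n = 3 each) and lines are group means, and for each gene the 2 groups do not overlap.

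Thrombospondin-2 (THBS2, ENSG00000186340, chromosome 6, 169215780 to 169254050, minus strand), a matricellular protein known to restrain blood vessel growth, moved the other way. It was at 18.7, 22.7 and 21.3 CPM in the EV-labelled and at 40.7, 42.2 and 36.0 CPM in the HDAC8-labelled libraries. It rose by a log2 fold change of 0.92 (SE 0.092, adjusted p = 2.1e-05 by edgeR's quasi-likelihood test), 1.90-fold in mean CPM. An antisense RNA, BX322234.1, shares 2249 exonic bases with THBS2. It had a log2 fold change of 1.06 (edgeR adjusted p = 0.000297) at up to 287 counts. The labels name a strand-specific preparation, but the counting is not stated to use strand. THBS2 had estimated counts that were not whole in 0 libraries, and whether reads were shared between these genes where they overlap was not tested.

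The other genes of this class changed less. Tenascin-C (TNC), an anti-adhesive glycoprotein of remodelled tissue, was at 446, 416 and 445 CPM with the EV label and at 325, 340 and 337 CPM with the HDAC8 label, without overlap. Its log2 fold change of -0.39 (SE 0.045, adjusted p = 7.55e-05 by edgeR's quasi-likelihood test) passed the adjusted p but not the fold threshold. SPARC, a collagen-binding glycoprotein, was at 2715 ± 96.1 and 2916 ± 68.2 CPM (SD, n = 3), a log2 fold change of 0.10 that did not pass (edgeR adjusted p = 0.0794). THBS1 and THBS3 had log2 fold changes of 0.48 (SE 0.82) and 0.14 (SE 0.16) and overlapped between the groups, and TNR had at most 3 counts in any library.

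The proteoglycans held the largest changes. Versican (VCAN, ENSG00000038427, chromosome 5, 83471618 to 83582303, plus strand) is the large chondroitin sulfate proteoglycan that binds hyaluronan. It had 68, 57 and 42 counts in the EV-labelled libraries and 911, 679 and 822 in the HDAC8-labelled libraries. Its level rose from 2.48 ± 0.728 to 33.2 ± 2.26 CPM (SD, n = 3), 13.4-fold, with a log2 fold change of 3.76 (SE 0.16, adjusted p = 1.52e-08 by edgeR's quasi-likelihood test). The ratio of summed counts corrected for library size was 13.5 (95% exact interval for counting error 11.6 to 15.9). The lowest HDAC8-labelled library, at 30.9 CPM, stood well above the highest EV-labelled one, at 3.15 CPM.

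Biglycan (BGN, ENSG00000182492, chromosome X, 153494980 to 153509546, plus strand), a small leucine-rich proteoglycan that binds collagen, was near the detection floor with the EV label. It had 1, 3 and 4 counts there and 37, 14 and 17 counts with the HDAC8 label. The ratio of summed counts (HDAC8 over EV) was 7.96 (95% exact interval for counting error 3.82 to 19.2), and the log2 fold change was 2.90 (SE 0.60, adjusted p = 0.00448 by edgeR's quasi-likelihood test). The groups did not overlap, but even the higher one had a mean of only 0.892 CPM. Among the genes chosen by symbol, lumican (LUM) was the other member of that family with enough counts. It was at 37.5, 37.8 and 34.7 CPM and at 47.8, 48.9 and 52.2 CPM, without overlap. Its log2 fold change of 0.44 (SE 0.067, edgeR adjusted p = 0.000615) was below the fold threshold. Decorin (DCN), which lies 28989 bases from LUM on chromosome 12, had 0 to 16 counts and was not tested.

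Collagen IV is the network-forming collagen of basement membranes, and its most common form combines chains from COL4A1 and COL4A2. Both genes rose. COL4A2 (ENSG00000134871, chromosome 13, 110305812 to 110513209, plus strand) was at 8.67, 8.93 and 8.21 CPM with the EV label and at 16.9, 18.6 and 15.7 CPM with the HDAC8 label, a log2 fold change of 0.99 (SE 0.11, adjusted p = 5.19e-05 by edgeR's quasi-likelihood test). COL4A1 (ENSG00000187498, chromosome 13, 110148963 to 110307157, minus strand) was at 7.32, 6.95 and 6.58 CPM and at 10.6, 11.7 and 9.43 CPM, with a log2 change of 0.60 (SE 0.14, adjusted p = 0.00712). Neither gene overlapped between the groups, and the gain was larger in COL4A2. COL4A1 stood just past the fold threshold and dropped below it without EV replicate 3 (log2 fold change 0.56) or HDAC8 replicate 2 (0.52). The COL4A1 to COL4A2 ratio per kb was 1.11, 1.02 and 1.05 in the EV-labelled and 0.825, 0.824 and 0.789 in the HDAC8-labelled libraries (exact permutation test, two-sided p = 0.1, the smallest possible; 0.217 adjusted over 13 comparisons). The 10 coding genes on each side of the pair had a median log2 fold change of -0.33. Around the other genes past both thresholds this median lay between -0.13 (COL11A2) and 0.16 (THBS2). A link between the neighbours and the pair was not tested.

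The minor collagen IV chains were scarce. COL4A5 was at 1.78 ± 0.178 and 1.55 ± 0.301 CPM (SD, n = 3) with a log2 fold change of -0.20 (SE 0.32), its partner gene COL4A6 had 0 counts in every library, and COL4A3 and COL4A4 had at most 8 and 15 counts. Among the other network collagens, COL10A1, the collagen X chain known from growth cartilage, had 0.834 to 1.44 and 1.66 to 2.97 CPM and a log2 fold change of 0.88 (SE 0.37) that did not pass (edgeR adjusted p = 0.113), and COL8A1 and COL8A2 were not tested.

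Collagen VI forms beaded microfilaments around cells and is assembled from COL6A1, COL6A2 and COL6A3 chains, which moved apart. COL6A3 (ENSG00000163359, chromosome 2, 237324003 to 237414328, minus strand) was at 14.8, 14 and 14.1 CPM with the EV label and at 22.2, 25.0 and 21.7 CPM with the HDAC8 label, and rose by a log2 fold change of 0.68 (SE 0.091, adjusted p = 0.000226 by edgeR's quasi-likelihood test). COL6A1 was at 156, 158 and 177 CPM and at 112, 124 and 121 CPM, and COL6A2 at 112, 105 and 117 CPM and at 69.5, 78.1 and 82.6 CPM. All 3 chains separated the groups, 1 upward and 2 downward. The log2 fold changes of COL6A1 (-0.46, SE 0.061, adjusted p = 0.000194) and COL6A2 (-0.54, SE 0.07, adjusted p = 0.000165, edgeR) passed the adjusted p but not the fold threshold, which COL6A2 reached without EV replicate 2 (-0.58) or HDAC8 replicate 3 (-0.61).

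The ratio of COL6A3 to COL6A1 per kb was 0.0245, 0.0227 and 0.0205 in the EV-labelled libraries and 0.0507, 0.052 and 0.0461 in the HDAC8-labelled libraries (exact permutation test, two-sided p = 0.1, the smallest possible; 0.217 adjusted over 13 comparisons). The ratio of COL6A1 to COL6A2, which lie 93061 bases apart on chromosome 21, was 1.34 to 1.46 and 1.41 to 1.56 and overlapped. COL6A3 was thus the scarcest of these chains per kb with either label, and its distance from COL6A1 narrowed. COL7A1, the chain of the anchoring fibrils beneath the epidermis, had a log2 fold change of 0.17 (SE 0.22) with overlap, and COL6A5, COL6A6, COL26A1 and COL28A1 were not tested. The plot of chains that assemble together sets collagen IV, collagen VI and a laminin side by side.

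**Figure D5:**
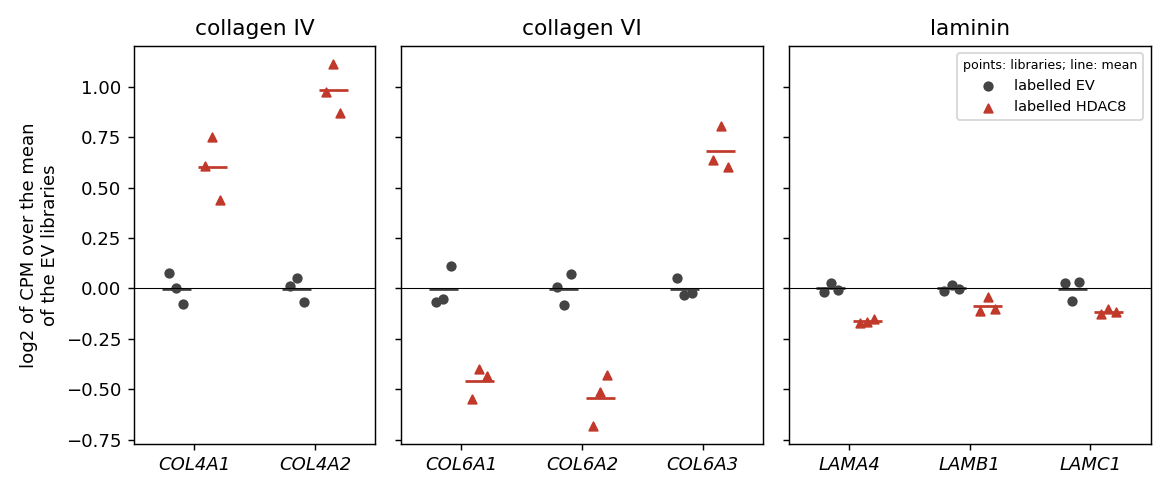
Log2 of CPM relative to the mean of the EV-labelled libraries (y axis) for the chains of collagen IV, collagen VI and the most abundant laminin chains of each kind. Points are libraries (circles EV-labelled, triangles HDAC8-labelled, n = 3 each) and lines are means: the collagen IV chains lie above 0, the collagen VI chains on both sides of it and the laminin chains just below it with the HDAC8 label.

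Collagens of the FACIT kind (fibril-associated collagens with interrupted triple helices) sit on the surface of fibrils. Of the 6 tested, 2 fell, beside 3.45% of all genes tested. COL16A1 (ENSG00000084636, chromosome 1, 31652263 to 31704319, minus strand) was at 28.9, 32.6 and 32.0 CPM with the EV label and at 12.3, 11.1 and 14 CPM with the HDAC8 label, 2.50-fold lower in the mean, with a log2 fold change of -1.32 (SE 0.10, adjusted p = 1.93e-06 by edgeR's quasi-likelihood test). COL19A1 (ENSG00000082293, chromosome 6, 69866556 to 70212468, plus strand) was at 33.9, 39.4 and 33.0 CPM and at 19.5, 19.7 and 18.5 CPM, with a log2 fold change of -0.88 (SE 0.087, adjusted p = 1.86e-05). Neither gene overlapped between the groups. LMBRD1, on the opposite strand, shares 85 exonic bases with COL19A1 and had a log2 fold change of 0.15.

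COL9A1 lies 3571 bases from COL19A1 on the opposite strand. It had 14, 26 and 21 counts with the EV label and 2, 0 and 11 with the HDAC8 label. The ratio of summed counts (EV over HDAC8) was 5.01 (95% exact interval for counting error 2.72 to 9.95), but the HDAC8-labelled libraries scattered, and the log2 fold change of -2.28 (SE 0.80) did not pass (edgeR adjusted p = 0.0626). It passed without HDAC8 replicate 3 (log2 fold change -4.34, edgeR adjusted p = 0.00541), with DESeq2 (adjusted p = 0.0324) and without a filter on low counts. The genes of its partners in the collagen IX trimer did not pass. COL9A3, the most abundant collagen per kb, was at 188 ± 14.5 and 213 ± 13.3 CPM (SD, n = 3; log2 fold change 0.18, edgeR adjusted p = 0.062), and COL9A2 at 6.45 ± 0.329 and 7.50 ± 0.486 CPM (log2 fold change 0.22, edgeR adjusted p = 0.331). The ratio of COL9A2 to COL9A3 per kb was 0.0367 to 0.0456 and 0.0369 to 0.0446. Of the remaining FACIT chains, COL14A1 had a log2 fold change of -0.76 (SE 0.62), and COL12A1, COL20A1, COL21A1 and COL22A1 were not tested.

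Fibrillar collagens make up the cable-like fibrils of connective tissue. These cells had little of the commonest of them: COL1A1 was at 1.69 ± 0.545 and 1.19 ± 0.304 CPM (SD, n = 3; log2 fold change -0.50, SE 0.38), COL1A2 had at most 1 count and COL3A1 at most 4 counts in any library. Of the 8 tested, 2 fell and 0 rose, beside 3.45% lower and 4.07% higher among all genes tested. COL5A3 (ENSG00000080573, chromosome 19, 9959561 to 10010504, minus strand), a minor chain of collagen V, was at 6.81, 5.50 and 5.28 CPM with the EV label and at 3.59, 3.30 and 2.84 CPM with the HDAC8 label, with a log2 fold change of -0.85 (SE 0.20, adjusted p = 0.00957 by edgeR's quasi-likelihood test). COL11A2 (ENSG00000204248, chromosome 6, 33162681 to 33192499, minus strand), a chain of the cartilage collagen XI, was at 8.11, 8.71 and 9.51 CPM and at 3.66, 4.09 and 6.89 CPM, with a log2 fold change of -0.85 (SE 0.22, adjusted p = 0.0165). The groups did not overlap for either gene, but HDAC8 replicate 3 of COL11A2 lay nearest to the EV-labelled libraries.

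These calls were the less firm among the genes that fell. COL5A3 did not pass without EV replicate 1 (adjusted p = 0.0582), and COL11A2 did not pass without EV replicate 3 (0.072) or HDAC8 replicate 2 (0.0636; edgeR's quasi-likelihood test). The main collagen V chains COL5A1 (3.68 ± 0.811 and 3.06 ± 0.981 CPM, log2 fold change -0.26) and COL5A2 (0.591 ± 0.212 and 0.858 ± 0.112 CPM, log2 fold change 0.53) overlapped between the groups. COL27A1 was the most abundant fibrillar collagen per kb, at 97.7 ± 10.6 and 74.7 ± 9.16 CPM (SD, n = 3), and its log2 fold change of -0.39 (SE 0.093, edgeR adjusted p = 0.0105) was below the fold threshold (adjusted p = 0.0534 without EV replicate 2). COL2A1 (-0.80, SE 0.43) and COL24A1 (0.20, SE 0.25) did not pass, and COL11A1 was not tested.

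Laminins are the cell-binding proteins of the basement membrane. Of the 10 chains tested, 0 passed both thresholds by edgeR's quasi-likelihood test or DESeq2, although 5 had an unadjusted p below 0.05 in edgeR, and all 10 log2 fold changes were negative, from -0.05 (LAMB2) to -0.65 (LAMA3), with a median of -0.15. The sign of LAMA5 turned to 0.027 without HDAC8 replicate 1, and that of LAMA2, a chain of the muscle laminin (main value -0.13, SE 0.37), to 0.067 without EV replicate 1 and 0.039 without HDAC8 replicate 1. The most abundant chains of each kind were LAMC1 at 442 ± 16.3 and 408 ± 3.32 CPM, LAMB1 at 455 ± 4.59 and 429 ± 10.9 CPM and LAMA4 at 244 ± 4.04 and 218 ± 1.47 CPM (SD, n = 3), together the chains of a laminin known from vessel walls. The groups did not overlap for these chains, yet the differences were small, with log2 fold changes of -0.12 (SE 0.043), -0.08 (0.041) and -0.16 (0.042). The adjusted p was 0.0752, 0.17 and 0.0157 (edgeR). The ratios of these chains per kb overlapped between the groups, at 0.455 to 0.494 and 0.472 to 0.487 for LAMB1 to LAMC1 and at 0.377 to 0.414 and 0.373 to 0.381 for LAMA4 to LAMC1.

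At the adjusted p alone, 4 of the 10 laminin chains passed, beside 22.7% of all genes tested. LAMA1, the alpha chain of the first basement membranes of the embryo, was at 140, 146 and 144 CPM with the EV label and at 101, 104 and 114 CPM with the HDAC8 label (log2 fold change -0.43, SE 0.057, edgeR adjusted p = 0.000182). LAMB3, a chain of the epidermal laminin, was at 21.7, 16.7 and 23.4 CPM and at 14.4, 13.3 and 14 CPM, and its log2 fold change was -0.57 (SE 0.12, edgeR adjusted p = 0.0057), just short of the fold threshold. LAMC3 was at 17.9 ± 2.24 and 12.5 ± 1.22 CPM (SD, n = 3; log2 fold change -0.52, edgeR adjusted p = 0.00752), and LAMA4 was the fourth of them. LAMA4 did not pass without EV replicate 2 (adjusted p = 0.0519) or EV replicate 3 (0.0628), or with the replicate number as a block (0.0508; edgeR), which leaves 3 of the 10. The groups did not overlap for any of these. LAMB3 passed the fold threshold as well without EV replicate 2 (-0.70) or HDAC8 replicate 1 (-0.60), and LAMC3 did without EV replicate 1 (-0.60) or HDAC8 replicate 3 (-0.61). LAMA3, an alpha chain that pairs with LAMB3, was scarce, at 1.25 ± 0.495 and 0.803 ± 0.165 CPM (SD, n = 3).

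The linkers that tie laminin to collagen IV did not pass both thresholds. Perlecan (HSPG2) was at 736 ± 16.1 and 693 ± 81.2 CPM (SD, n = 3) and overlapped between the groups (log2 fold change -0.09, edgeR adjusted p = 0.427). Agrin (AGRN) was at 285 ± 10.7 and 244 ± 29.8 CPM, also with overlap, and its log2 fold change of -0.23 (SE 0.074, edgeR adjusted p = 0.0465) was below the fold threshold. With any 1 library other than HDAC8 replicate 3 left out, AGRN missed the adjusted p as well (0.0659 to 0.152, edgeR). Nidogen-1 (NID1) had a log2 fold change of 0.41 (SE 0.47). Nidogen-2 (NID2) varied from library to library, with 11, 34 and 3 counts with the EV label and 119, 3 and 1 with the HDAC8 label. Its log2 fold change of 1.02 (SE 1.1) turned to -2.88 without HDAC8 replicate 1. PXDN, ITGA8 and LAIR1, from the lists given below and named after their values were seen, were also highest in HDAC8 replicate 1. They had 313, 64 and 122 counts there, and at most 14, 7 and 1 in the other HDAC8-labelled libraries. Whether this reflects that library was not tested.

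Fibrillins form the microfibrils that carry elastin, and the 2 genes tested had opposite signs. FBN1 (ENSG00000166147, chromosome 15, 48408313 to 48645721, minus strand) was at 2.23, 1.85 and 2.93 CPM with the EV label and at 3.56, 3.89 and 4.74 CPM with the HDAC8 label, with a log2 fold change of 0.79 (SE 0.26, adjusted p = 0.044 by edgeR's quasi-likelihood test). FBN2 was at 4.05 ± 0.468 and 2.85 ± 0.257 CPM (SD, n = 3), a log2 fold change of -0.51 (SE 0.22) that did not pass (edgeR adjusted p = 0.13). Neither gene overlapped between the groups. FBN1 was the weakest call of the 12 and did not pass without EV replicate 1 (adjusted p = 0.126), EV replicate 2 (0.13), HDAC8 replicate 2 (0.0851) or HDAC8 replicate 3 (0.115), or with the replicate number as a block (0.0561; edgeR's quasi-likelihood test).

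The transmembrane collagens and the multiplexins, whose ends release endostatin-like fragments, held 0 genes past the thresholds in edgeR or DESeq2, and 1 of the 4 tested had an unadjusted p below 0.05 in edgeR. COL25A1 (log2 fold change 0.93, SE 0.42), COL13A1 (-0.81, SE 0.60), COL15A1 (0.12, SE 0.37) and COL18A1 (0.06, SE 0.084) did not pass edgeR's quasi-likelihood test (adjusted p from 0.14 to 0.861). COL17A1 and COL23A1 were not tested.

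The 22 genes that were not tested were 18 collagens, 2 laminins, TNR and DCN. None had more than 16 counts in a library, and COL21A1 and COL4A6 had 0 in all 6, so differences among these genes were not detectable at this depth. Estimated counts that were not whole, a sign of reads divided between genes, occurred in 9 of the 73 genes. Of the 12 genes that rose or fell, VCAN had such values, in 2 of the 6 libraries.

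Genes that work on these proteins were counted next, from lists chosen by function. Among 32 genes for collagen folding, processing and cross-linking, 28 were tested, 1 rose and 1 fell (7.14%, beside 7.52% of all genes tested), with a median log2 fold change of -0.01. TGM2, a transglutaminase that cross-links fibronectin and other matrix proteins, rose from 2.42 ± 0.256 to 7.27 ± 1.5 CPM (SD, n = 3; log2 fold change 1.58, edgeR adjusted p = 0.000226). ADAMTS14, which trims procollagen ends, fell from 1.47 ± 0.257 to 0.447 ± 0.191 CPM (log2 fold change -1.72, edgeR adjusted p = 0.0154). This call was lost without EV replicate 1 (adjusted p = 0.0737) or EV replicate 2 (0.0616; edgeR), and the gene was not tested when 10 counts were asked of every library. The collagen chaperone SERPINH1, named after its values were seen, was at 247, 237 and 252 CPM and at 169, 179 and 172 CPM, and its log2 fold change of -0.50 (SE 0.047, edgeR adjusted p = 1.23e-05) was below the fold threshold.

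Among 47 other matrix genes, 25 were tested, 4 rose and 3 fell (28.0%, beside 7.52% of all genes tested). Their median log2 fold change was 0.09. Osteopontin (SPP1), an integrin-binding phosphoprotein, rose from 26.5 ± 2.15 to 69.1 ± 3.09 CPM (SD, n = 3; log2 fold change 1.38, edgeR adjusted p = 9.51e-08). Brevican (BCAN), a hyaluronan-binding proteoglycan of the same family as versican, fell from 83.1 ± 5.46 to 27.1 ± 1.55 CPM (log2 fold change -1.61, edgeR adjusted p = 2.05e-08). VCAN and BCAN were thus changed in opposite directions. MFAP2 (log2 fold change 0.61), FBLN1 (0.77) and TGFBI (1.32) rose as well, and SPOCK1 (-1.29) and MATN2 (-1.01) fell. TGFBI did not pass when any 1 library other than EV replicate 3 was left out (adjusted p = 0.0669 to 0.0899, edgeR), or with the replicate number as a block (0.0507). MATN2 did not pass when any other than HDAC8 replicate 2 was left out (0.0594 to 0.135), or with the block (0.0599). FBLN1 did not pass without EV replicate 1 (0.0708), EV replicate 3 (0.0527) or HDAC8 replicate 1 (0.0649), and MFAP2 missed the fold threshold without EV replicate 2 (0.52) or HDAC8 replicate 1 (log2 fold change 0.575).

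Among 31 genes for receptors of matrix components, 26 were tested, 4 rose and 3 fell (26.9%, beside 7.52% of all genes tested). Their median log2 fold change was -0.01. The syndecan SDC1 rose from 10.1 ± 2.07 to 28.0 ± 1.73 CPM (SD, n = 3; log2 fold change 1.47, edgeR adjusted p = 8.97e-06). The fibronectin-binding integrin chain ITGA4 rose from 39.7 ± 1.90 to 70.0 ± 5.47 CPM (0.82, adjusted p = 6.44e-06), and the laminin-binding chain ITGA3 fell from 123 ± 6.39 to 57.2 ± 2.20 CPM (-1.10, adjusted p = 9.73e-08). ITGA1 (0.63) and ITGA7 (0.59) also rose and SDC4 (-0.66) and ITGA10 (-0.61) fell. ITGA7 missed the fold threshold without EV replicate 2 (0.54) or HDAC8 replicate 3 (0.45). ITGA10 did not pass without EV replicate 1 (edgeR adjusted p = 0.055) and missed the fold threshold without HDAC8 replicate 1 (-0.53).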

How the data were processed

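RNA from 3 EV-labelled and 3 HDAC8-labelled SK-MEL-28 samples was sequenced. The labels name the Aurum kit, ribosomal RNA depletion and a strand-specific NEBNext preparation, whereas the methods name Direct-zol and TruSeq kits. Per the methods, the authors used Trimmomatic for trimming, STAR for alignment to the transcriptome and RSEM for quantification, and the labels name GRCh38. The deposited values are estimated counts per Ensembl gene without normalization, for 60504 genes. A second deposited table, with a log2 fold change, a p-value and 2 group values whose headings (control, test) do not name the groups, was not used. WM164 RNA-seq was not analysed here.

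Library totals were 20850018 to 29822917 counts. RSEM divides reads shared between genes, so 5351 to 5685 values per library were not whole, and all were rounded. Genes were tested with edgeR 4.0.16 in R 4.3.3 (filterByExpr, TMM, glmQLFit and glmQLFTest, no block, Benjamini-Hochberg over 16195 genes), with the thresholds of the study's methods (adjusted p below 0.05, log2 fold change of 0.58 or more in size), while its figure legends use a p without adjustment. The SE is the size of that change over the root of the F statistic. CPM used TMM library sizes, and CPM per kb the merged exon length in GENCODE 44, in which all 73 genes were matched by Ensembl identifier. Chain ratios and summed levels were compared by exact two-sided permutation tests over libraries, and intervals on summed counts are exact binomial intervals at 95% and cover counting error only. Genes were named if past both thresholds, if chains of 1 trimer or gene pair, if among the 3 laminin chains of highest level of each kind (alpha, beta, gamma) or the 10 genes of highest level per kb, and, from each further list, the 5 of lowest adjusted p past both thresholds, with remaining ones named so that every counted gene is given. Other genes were named to account for the rest of the 73, apart from 1 that is not reported here. The genes and lists were chosen with earlier results of these data known. The alternatives were DESeq2 1.42.0, upper-quartile normalization, no filter or at least 10 counts in every library, no fold threshold, unadjusted p, the replicate number as a block, and each library left out. The scripts were tested on simulated counts.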

Additional observations from a re-analysis of the deposited data

How the results depend on the processing

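Of the values given for counts of genes and for the median, 123 alternatives stayed within 1.5 times the main count or within the replicate spread, and 18 did not. Dropping the fold threshold gave 1790 higher and 1891 lower genes of all tested, with 14 matrix genes lower, 3 matrix assembly genes higher and 7 lower, and 7 receptors higher and 8 lower. Without a filter on low counts 2 matrix assembly genes were higher, and with at least 10 counts in every library 0 were lower. With each library left out in turn, 5 to 7 matrix genes were higher and 4 to 8 lower, the latter being 8 without HDAC8 replicate 3, when COL6A2, COL9A1 and LAMC3 also passed. Over the same fits, all genes numbered 560 to 661 higher and 456 to 606 lower, matrix assembly genes 0 to 1 lower (0 without EV replicate 1 or 2), other matrix genes 2 to 4 higher (2 without EV replicate 1, EV replicate 2 or HDAC8 replicate 1) and 2 to 5 lower (5 without HDAC8 replicate 2), and the median of the matrix genes lay between -0.183 (without HDAC8 replicate 3) and -0.034 (without HDAC8 replicate 1). The cause of these shifts was not tested, apart from the fewer genes or libraries that an alternative holds.

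For 77 genes (the 51 tested matrix genes, HDAC8, the melanocyte markers, SERPINH1 and the genes of the lists that rose or fell), 912 alternatives kept direction and side of the threshold, 28 brought a gene past it, 38 lost it and 13 turned the sign. The sign turned in 8 genes, none of which passed. With each library left out, COL15A1 ran from -0.33 (without HDAC8 replicate 3; -0.025 without EV replicate 1) to 0.353, COL7A1 from -0.056 (without HDAC8 replicate 3) to 0.408, HDAC8 from -0.158 to 0.08 (without EV replicate 1; also above 0 without EV replicate 2, 0.01, or HDAC8 replicate 3, 0.008), LAMA2 from -0.402 to 0.067 (without EV replicate 1; 0.039 without HDAC8 replicate 1), LAMA5 to 0.027 (without HDAC8 replicate 1), NID2 from -2.883 (without HDAC8 replicate 1) to 2.205, THBS1 from -0.093 (without EV replicate 2) to 1.756 and THBS3 from -0.031 (without HDAC8 replicate 2) to 0.265. NID2 was at -0.017 with the replicate block. Deviations of same-numbered libraries from their group means correlated at -0.0493, -0.117 and -0.0758. No positive correlation was thus seen, but this cannot tell whether same-numbered samples were handled together. With the replicate number as a block, 6 matrix genes were higher and 5 lower, the call lost being FBN1. Among the other matrix genes TGFBI and MATN2 were lost (3 higher, 2 lower), and 601 genes were higher and 497 lower in all. The counting floor limits BGN, COL9A1, NID2 and the 22 genes not tested.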
